A study of Mus musculus with 5 samples.

Results

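Both Tmsb4x knockout clones treated with TGF-β1 were compared with wild-type B16F1 cells treated with TGF-β1, across all genes named on the array. B16F1 is a mouse melanoma cell line. RNA of 5 cultures was measured on 5 one-colour Agilent arrays, and 3 of these arrays make up the comparison: wild type (1 array), knockout clone 1 (1 array) and knockout clone 2 (1 array). All 3 cultures received 10 ng/ml TGF-β1 for 2 days in medium with foetal bovine serum. In the labels the wild type differs from the knockout cultures by the Tmsb4x genotype and by not being named as a clone. Genotype and derivation as a clone therefore cannot be told apart on these arrays. The other arrays, used here only to place values, are wild-type cells with vehicle, for which the labels give no time, and wild-type cells with TGF-β1 and 10 µM CCG1423, an inhibitor of MRTF signalling, for 2 days. No knockout culture without TGF-β1 was analysed here, so these arrays hold no comparison of the genotypes without it.

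Each value is a log2 level, the processed signal of a probe relative to the 75th percentile of all probes on its array. A gene was taken as measured when all 3 arrays read its probe well above background, and 12325 of 22907 named genes were. Of these, 7936 (64.4%) lay on the same side of wild type in both clones, and they are the genes described here, with those that only a bound can describe because a side was dim. Lying on the same side is fixed by the choice and is not a result. Both clones were set against the same wild-type array, so an error of that array appears in both differences.

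Tmsb4x encodes thymosin β4, a small peptide that binds actin monomers and keeps them out of filaments. Monomeric actin also binds the coactivators MRTF-A and MRTF-B and holds them inactive, and freed MRTF joins the transcription factor SRF at CArG boxes in genes of the cytoskeleton and of contraction. TGF-β is a cytokine that signals through SMAD proteins and that remodels matrix and cytoskeleton genes in many cells.

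The Tmsb4x probe read 7.12 in wild type, 5.44 in clone 1 and 4.28 in clone 2. The level of clone 1 was 3.21-fold lower and that of clone 2 was 7.16-fold lower, and the signal was well above background on every array. The mean log2 difference was -2.26 (SE 0.44, n = 2 clones against 1 wild-type array; limma, Benjamini-Hochberg adjusted p = 0.0857), so the targeted gene missed the threshold of 0.05. Vehicle-treated wild-type cells read 5.05, below clone 1. The labels speak of a knockout and the design text of a knockdown, and neither names the edited stretch, so whether this single probe lies inside it was not tested. Tmsb10, the other main β-thymosin gene, read 9.17 in wild type, 9.22 in clone 1 and 8.96 in clone 2.

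On each array 48.2% to 53.8% of the probes passed the flag for signal well above background, with 0 saturated spots. The lowest signal counted as well above background was 26 on the array of clone 2 and 13.3 to 15.5 on the others. All 7 melanocyte markers were well above background on every array, and their summed level was 11.18 in wild type, 11.38 in clone 1 and 11.39 in clone 2. For fibroblast markers 2 of 10 were well above background on each of the 3 arrays (Col1a2 and Postn), with a summed level of 1.49 in wild type, 1.5 in clone 1 and -0.19 in clone 2. Immune markers (4 to 5 of 8), epithelial markers (1 to 3 of 8) and endothelial markers (1 to 2 of 6) were also read on these arrays. In wild type, clone 1 and clone 2 the summed level was 5.07, 5.37 and 5.03 for immune markers. It was -1.58, -1.64 and -0.9 for epithelial markers and 0.91, 1.43 and 2.78 for endothelial markers. Cd3e, Itgam, Csf1r, Cd68 and Vwf were well above background on every array, whereas Ptprc, Epcam, Cdh1, Pdgfra and Cdh5 were on none.

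Differences shared by both clones were few and mostly small. Of the measured genes, 79 (0.641%) were 2-fold or more higher and 53 (0.43%) 2-fold or more lower in both clones, and 15 of these 132 passed 4-fold. Each clone alone differed from wild type by 2-fold in more genes: 510 in clone 1 (299 higher, 211 lower) and 495 in clone 2 (313 higher, 182 lower). The clones also differed from each other by 2-fold in 533 genes (4.32%), and 34 genes stood 2-fold on opposite sides of wild type. The median log2 difference over all measured genes was 0.03 (clone 1) and 0.02 (clone 2). Their SD was 0.48 in clone 1, 0.45 in clone 2 and 0.52 between the clones. Of the 132 genes, 90 differed by less than 0.5 (log2) between the clones.

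The balance of directions depended on how the arrays were scaled. With the arrays as scaled in the authors' deposited value table, 140 genes passed 2-fold in both clones, 40 higher and 100 lower, and 93 of the 132 were among them. That scaling moved the median of all measured genes to -0.33 in clone 1 and -0.01 in clone 2. With normexp background correction and quantile normalization 53 genes passed, 26 higher and 27 lower.

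**Figure D1:**
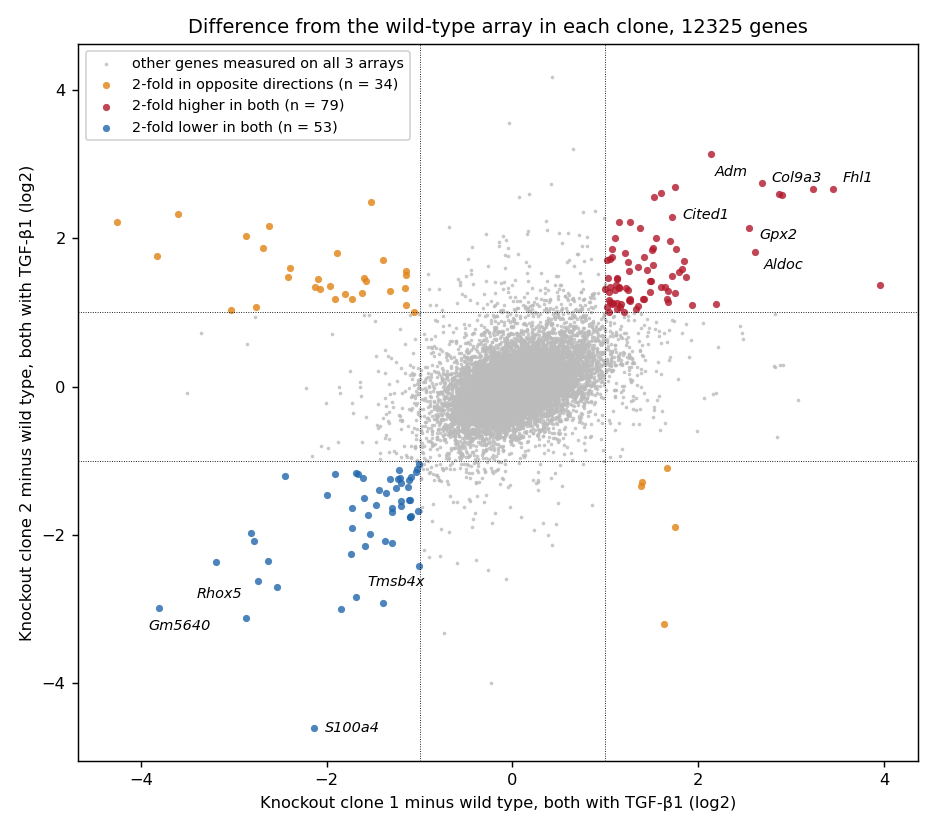
Log2 difference from the wild-type TGF-β1 array in clone 1 (horizontal axis) and clone 2 (vertical axis), 1 point per measured gene, with genes past 2-fold in both clones coloured and the 2-fold lines dotted. The 79 higher genes lie in the upper right corner and the 53 lower genes in the lower left. The 34 genes past 2-fold in opposite directions lie in the other corners, 29 of them in the upper left, and 17 of those 29 are interferon genes.

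The limma fit over all 13729 genes tested called 32 (0.233%), 1 higher (0.00728%) and 31 lower (0.226%), at a Benjamini-Hochberg adjusted p under 0.05, and 793 (5.78%) had an unadjusted p under 0.05. Most of the 32, 26 genes, were well above background in wild type alone and so entered the test through the array where they are high, which in large part fixes the split of directions. With only genes measured on all 3 arrays in the fit, limma called 3, 1 higher and 2 lower. Only 4 of the 32 were measured on all 3 arrays: Rhox5, Aadacl4 and Gm5640 fell and Adm rose. With 1 residual degree of freedom, the fit takes its spread from the difference between the clones and lends it to the lone wild-type array, and the labels do not say whether the cultures were grown on separate occasions. The count of calls ranged from 0 to 279 over other ways of scaling, filtering and fitting.

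Among the genes that fell, Rhox5, a homeobox gene of the X-linked reproductive cluster, read 6.13 in wild type, 3.39 in clone 1 and 3.51 in clone 2. It was 6.67-fold lower in clone 1 and 6.17-fold lower in clone 2 (mean log2 difference -2.68, SE 0.29; limma adjusted p = 0.0176), with 5.73 to 6.26 on the wild-type arrays and no overlap with the clones. A second Rhox5 probe gave log2 differences of -2.75 and -2.70. Aadacl4, which codes for an arylacetamide deacetylase-like protein, read -0.14 in wild type, -3.01 in clone 1 and -3.26 in clone 2 (limma adjusted p = 0.0488). The other wild-type arrays read -2.88 with vehicle and -2.69 with CCG1423, so for Aadacl4 the wild-type TGF-β1 array stood alone and the clones lay near the rest. Gm5640, an X-linked predicted gene, read 0.14 in wild type, -3.66 in clone 1 and -2.85 in clone 2 (limma adjusted p = 0.0334), against -0.56 and -0.34 on the other wild-type arrays.

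Adm, which encodes the secreted vasodilator peptide adrenomedullin, was the only gene called higher. It read -1.45 in wild type, 1.23 in clone 1 and 1.29 in clone 2, so it rose 6.42-fold in clone 1 and 6.68-fold in clone 2 (mean log2 difference 2.71, SE 0.35; limma adjusted p = 0.0307). Both clones lay above the vehicle array (-0.42) and the CCG1423 array, where the probe was not well above background. Rhox5 stayed past the threshold in 9 of 11 other settings (adjusted p 3.77e-13 to 0.0825) and Adm in 8 of 11 (5.56e-07 to 0.123). Aadacl4 (4.14e-05 to 0.126) and Gm5640 (4.64e-08 to 0.172) also stayed past it in 8 of 11 each.

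Several other genes of higher level lay below wild type in both clones without passing the test. The calcium-binding protein gene S100a4, known for its part in cell motility, read 6.49 in wild type, 4.36 in clone 1 and 1.89 in clone 2. That is 4.39-fold lower in clone 1 and 24.3-fold lower in clone 2 (limma adjusted p = 0.153). S100a6, from the same gene family, read 3.85, 2.83 and 1.42 in that order. Both S100 genes were thus much lower in clone 2 than in clone 1, while S100a1, another member, lay 2.80-fold and 2.68-fold higher than wild type (3.91 and 3.84 against 2.42; limma adjusted p = 0.0754). The list of S100 and annexin genes had 6 of 19 measured members above wild type and 5 below in both clones.

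Axl, a receptor tyrosine kinase, read 2.93 in wild type, 1.72 in clone 1, 1.63 in clone 2 and 5.0 with CCG1423, but a second Axl probe gave log2 differences of only -0.13 and -0.21. Il6, an inflammatory cytokine gene, read -0.45 in wild type, -2.18 and -2.09 in the clones, and was not well above background with vehicle. Nes (nestin, an intermediate filament protein), Pmp22 (a myelin protein), Synpo (synaptopodin, an actin-binding protein) and Fam178b were 1.93-fold to 2.49-fold lower in both clones. The other Synpo and Pmp22 probes lay between -0.20 and -0.47, so their size rests on 1 probe each.

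Among genes above wild type, Aldoc, a glycolytic aldolase, read 2.49 in wild type, 5.10 in clone 1 and 4.30 in clone 2 (6.10-fold and 3.50-fold; limma adjusted p = 0.0509). Cited1, a transcriptional coregulator found in melanocytes, read 3.68, 5.39 and 5.96 in the same order (limma adjusted p = 0.0509). For both genes the 2 clones lay above all 3 wild-type arrays. The glutathione transferase gene Gsta2 read 0.81 in wild type, 2.60 in clone 1 and 2.36 in clone 2, and the related Gm10639 read 1.91, 3.74 and 3.50. Vehicle-treated wild-type cells had 2.91 for Gsta2 and 3.99 for Gm10639, so both clones lay within the wild-type range for these near-identical family members, whose probes may share transcripts.

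Gchfr, the feedback regulator of the first enzyme of tetrahydrobiopterin synthesis, read 0.34 on the wild-type TGF-β1 and CCG1423 arrays and 0.37 with vehicle, against 1.85 in clone 1 and 2.18 in clone 2. Hs3st6 (a heparan sulfate sulfotransferase), Smtnl2 (a smoothelin-like protein), Ptgds (prostaglandin D synthase), Cystm1 and 1700003F12Rik were 2.15-fold to 3.64-fold higher in both clones. Tmem140 was 2.22-fold and 4.67-fold higher, and Htr2b, a serotonin receptor gene, 3.17-fold and 2.26-fold. Htr2b read 0.31 in wild type and was not well above background with vehicle, so the clones lay farther from vehicle than the wild type did.

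**Figure D2:**
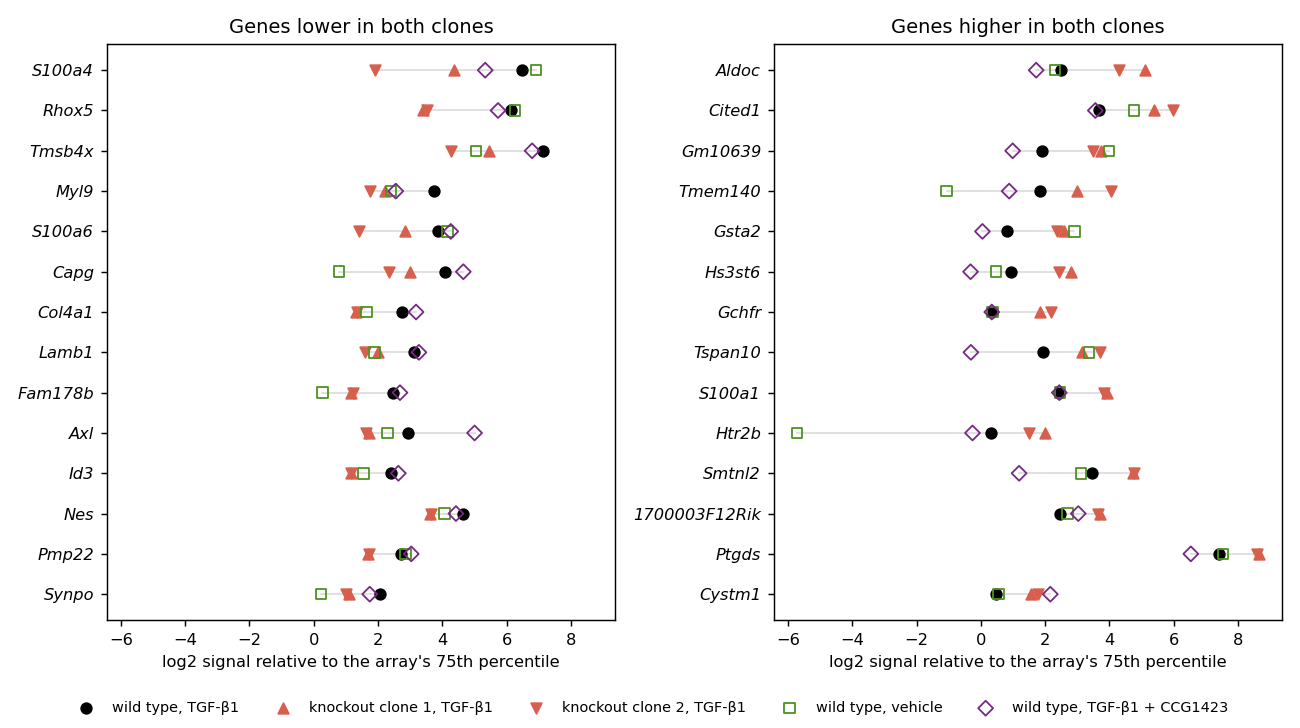
Log2 level relative to the array's 75th percentile for 14 of the 15 lower and 14 of the 15 higher genes with the widest shared difference among genes of higher level, 1 symbol per array. The clone triangles lie beside each other for most genes and apart for S100a4, S100a6, Tmsb4x and Tmem140, and the open symbols show the 2 other wild-type arrays.

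At lower levels, some genes differed by over 4-fold in both clones. They were picked after their values were seen. Ddc, which encodes the decarboxylase that makes dopamine and serotonin, read -2.70 in wild type, 0.21 in clone 1 and -0.11 in clone 2 (limma adjusted p = 0.0588). The interferon-inducible membrane protein gene Ifitm6 read -3.89, -0.66 and -1.23. On the lower side, Pxdn, a peroxidase of basement membranes, read -0.51 in wild type, -3.70 in clone 1 and -2.87 in clone 2, and was not well above background on the vehicle array. Trim36, Mfsd13a and A630072M18Rik were 4.25-fold to 6.88-fold lower in both clones. For A630072M18Rik the vehicle array read -3.27, below clone 1 (-3.01) and clone 2 (-3.19), and the probe was not well above background with CCG1423. None of these 6 passed the limma threshold (adjusted p 0.0509 to 0.0895).

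Genes driven by MRTF and SRF are the group the series was set up around. Promoters of 4 of them are shown because each holds a CArG box, a run of A and T bases between CC and GG. Myl9 and Vcl code for myosin light chain and vinculin, Srf for the factor itself and Fhl1 for a LIM-domain protein of muscle. The sequences are RefSeq promoters of assembly GRCm38.p6, 250 bases up to the transcription start, 5′ to 3′ on the gene's strand, with the CArG box in capitals. They lie at chr2:156775214-156775463 (plus strand), chr14:20929148-20929397 (plus), chr17:46556163-46556412 (minus) and chrX:56779433-56779682 (plus) for Myl9, Vcl, Srf and Fhl1.
Myl9: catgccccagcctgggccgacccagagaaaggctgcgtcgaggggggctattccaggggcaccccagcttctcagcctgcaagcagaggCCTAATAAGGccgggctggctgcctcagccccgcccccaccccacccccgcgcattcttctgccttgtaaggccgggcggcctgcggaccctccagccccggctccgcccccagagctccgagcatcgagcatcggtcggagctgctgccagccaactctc
Vcl: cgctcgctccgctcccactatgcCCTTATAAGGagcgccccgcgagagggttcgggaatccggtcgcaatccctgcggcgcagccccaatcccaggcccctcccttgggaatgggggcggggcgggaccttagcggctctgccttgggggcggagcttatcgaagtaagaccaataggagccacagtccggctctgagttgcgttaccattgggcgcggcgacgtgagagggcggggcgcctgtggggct
Srf: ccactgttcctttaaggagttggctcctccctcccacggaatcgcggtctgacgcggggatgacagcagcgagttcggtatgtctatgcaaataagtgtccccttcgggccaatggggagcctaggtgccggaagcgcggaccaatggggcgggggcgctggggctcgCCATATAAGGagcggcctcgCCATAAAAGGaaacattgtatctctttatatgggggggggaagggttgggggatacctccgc
Fhl1: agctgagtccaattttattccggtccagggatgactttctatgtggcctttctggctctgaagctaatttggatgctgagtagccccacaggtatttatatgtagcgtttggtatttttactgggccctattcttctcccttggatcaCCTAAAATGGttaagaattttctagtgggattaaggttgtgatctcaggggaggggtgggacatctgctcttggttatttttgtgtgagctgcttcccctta
The first base of the box stands 161 bases before the start in Myl9, 227 in Vcl, 82 and 62 in Srf and 102 in Fhl1, in 1 of its 2 promoters. Searched on both strands in windows from 250 bases before to 50 after the start, a CArG box was found in 11 of 48 promoters (22.9%) of the measured MRTF-SRF targets, in 10 of the 38 genes that matched, and in 1.63% of all 32851 promoters. The list holds known SRF targets, so this share is a property of the list. Among all genes that differed by 2-fold in both clones, 2 of 53 promoters of the lower genes (3.77%) and 2 of 74 of the higher genes (2.7%) held one.

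Of 46 measured MRTF-SRF targets, 32 lay below wild type in both clones and 5 above. Over all measured genes 29.3% lay below in both and 35.1% above. The median log2 difference of the list was -0.32 in clone 1 and -0.45 in clone 2. None of the 50 members tested passed the limma threshold, and 8 had an unadjusted p under 0.05 (5.78% of all genes tested), so no single target is called changed. Only 3 of the 46 passed 2-fold in both clones: Myl9 and Fblim1 lower, and Fhl1 higher.

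Myl9 read 3.73 in wild type, 2.20 in clone 1 and 1.74 in clone 2, against 2.40 with vehicle and 2.55 with CCG1423 (limma adjusted p = 0.0588). Both clones lay below all 3 wild-type arrays. Fblim1, an adaptor of focal adhesions that links filamin and integrin tails, read -0.09, -1.18 and -1.30 in wild type, clone 1 and clone 2. The vehicle array read -2.38 for Fblim1, below both clones, and the CCG1423 array -1.26. Fhl1 stood apart from the list: it read -3.91 in wild type and -3.94 with vehicle, was not well above background with CCG1423, and read -0.46 in clone 1 and -1.25 in clone 2, which is 11-fold and 6.33-fold higher (limma adjusted p = 0.0588).

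The other CArG-box members were closer to wild type. Vcl read 3.41 in wild type and 2.80 in each clone, and Srf 1.61, 1.21 and 1.15. Filip1l, a filamin-interacting protein gene, was 1.55-fold and 2.16-fold lower, and Cnn2 (calponin 2) 1.51-fold and 1.54-fold. Actg1 and Lima1 also lay below wild type in both clones, while Fhl2 (0.48 and -0.16) and Myl6 (0.42 and -0.09), which code for a LIM-domain protein and a myosin light chain, took opposite sides.

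Among members for which no box was found, Actn1 (α-actinin 1) read 4.92 in wild type, 4.11 in clone 1 and 4.07 in clone 2. Only 38 of the 46 measured members had a promoter to search, so members of this group may not have been searched. The Notch ligand gene Jag1 read 2.19, 1.32 and 0.37, the actin crosslinker gene Flna was 1.68-fold and 1.49-fold lower, and Tagln2 (transgelin 2) was 1.48-fold and 1.85-fold lower. Mylk, the myosin light chain kinase, differed by -1.85 in clone 1 and -0.09 in clone 2 (log2) at its brightest probe and by -1.31 and -0.82 at a second one. The immediate-early genes Fos and Egr1, which other signals drive through SRF as well, lay above wild type in both clones, by 0.89 and 0.62 and by 0.91 and 0.73 (log2).

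**Figure D3:**
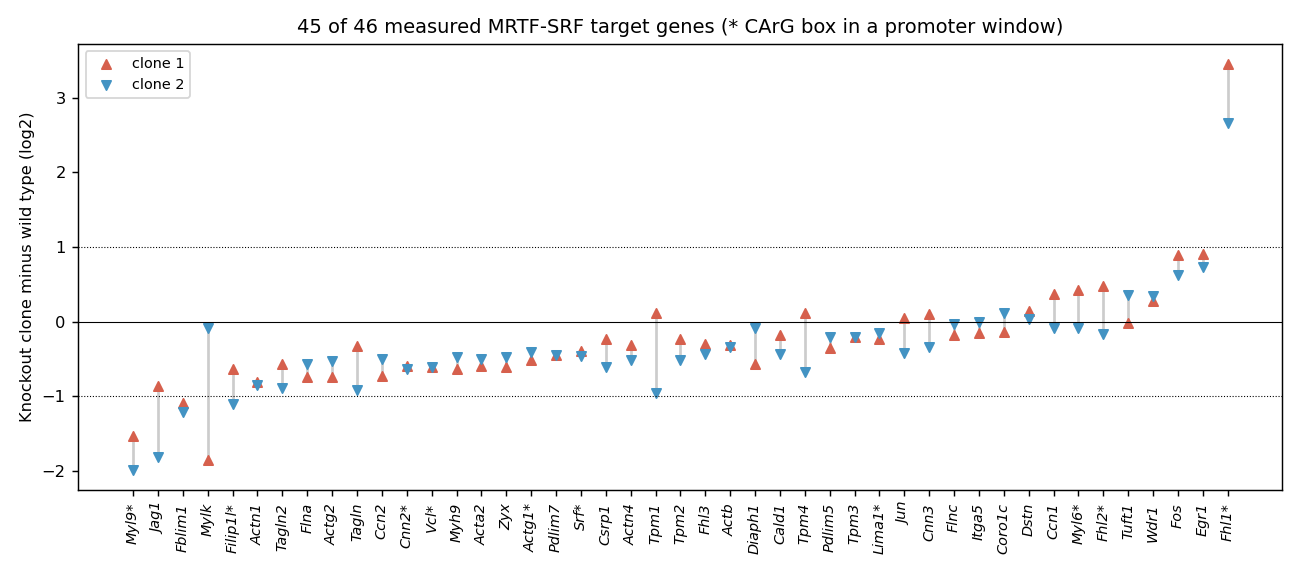
Log2 difference of each clone from the wild-type TGF-β1 array for 45 of the 46 measured MRTF-SRF targets, in order of the mean, with an asterisk at genes that have a CArG box in a promoter window. Most symbols lie between 0 and -1, Myl9 and Fblim1 lie below -1 in both clones, and Fhl1 lies far above 1.

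All 5 measured actin isoform genes lay below wild type in both clones (medians -0.52 and -0.41), and none had an unadjusted limma p under 0.05. Acta2 was 1.51-fold and 1.41-fold lower, Actg2 1.67-fold and 1.45-fold, Actg1 1.44-fold and 1.33-fold, Actc1 1.27-fold and 1.33-fold and Actb 1.25-fold and 1.27-fold. Mrtfa, which encodes MRTF-A, read 4.03 in wild type and 3.63 and 3.57 in the clones. Mrtfb read 3.56, 3.20 and 3.42 at its brightest probe, but another measured probe gave 0.84 in clone 1 and -0.35 in clone 2 (log2), so its side in clone 1 depends on the probe. Among 20 measured regulators of MRTF and SRF 10 lay below wild type in both clones and 2 above, beside 29.3% and 35.1% of all measured genes.

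Other monomer-binding and assembly genes were spread around wild type. Of 18 measured β-thymosin and actin monomer-binding genes, 5 lay below and 2 above in both clones, and Tmsb4x was the only one past 2-fold. Pfn1 (profilin 1) and Cfl1 (cofilin) differed by at most 1.12-fold, whereas Pfn2 (profilin 2) was 1.94-fold and 1.75-fold higher. Of 40 genes of actin assembly and turnover, 18 lay below and 12 above in both clones. The widest were Capg, a filament-capping protein gene (4.09 in wild type, 2.98 in clone 1, 2.34 in clone 2 and 0.78 with vehicle), and Coro1a (coronin 1A), 2.18-fold and 2.72-fold higher.

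Adhesion and guidance genes differed by small amounts. Of 39 measured integrin and focal adhesion genes, 22 lay below wild type in both clones and 7 above (medians -0.29 and -0.17), beside 29.3% and 35.1% of all measured genes. Talin 2 (Tln2) was 1.96-fold and 1.84-fold lower, Zyx (zyxin) 1.53-fold and 1.39-fold and Itgb1 (integrin β1) 1.11-fold and 1.48-fold, while Itgb4 was 1.51-fold and 1.34-fold higher. Of 40 semaphorin, plexin, ephrin and other guidance genes 22 lay below and 7 above. Plxna2, a semaphorin receptor subunit, read 1.83 in wild type, 0.72 in clone 1 and 0.56 in clone 2, and the guidance receptor gene Robo1 1.48, 0.73 and 0.80. None of the members tested in these 2 lists passed the limma threshold. An unadjusted limma p under 0.05 was found for 2 of 43 and 6 of 47, beside 5.78% of all genes tested.

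TGF-β targets did not lie to one side. Of 23 measured TGF-β and SMAD targets 10 lay below wild type in both clones and 8 above (medians -0.07 and -0.10). None of the 23 tested passed the limma threshold, and 3 had an unadjusted limma p under 0.05, beside 5.78% of all genes tested. Id3, a helix-loop-helix inhibitor gene, read 2.39 in wild type, 1.16 in clone 1 and 1.15 in clone 2 and was the only member past 2-fold in both. Id1 was 1.57-fold and 1.30-fold lower, and Id2 1.74-fold and 1.95-fold higher. Smad7 and Ccn2, a feedback inhibitor and a matricellular protein gene, were 1.32-fold to 1.66-fold lower, and Pmepa1, another feedback inhibitor gene, differed by -0.46 and 0.15. Ccn2 read 4.99 in wild type with TGF-β1 and 4.26 and 4.49 in the clones, against -0.80 with vehicle. Tgfbr2, a receptor gene, was 1.69-fold and 1.30-fold lower. The ligand gene Tgfb2 was 2.06-fold and 1.57-fold lower at its brighter probe, but a second measured probe gave -1.19 in clone 1 and 1.63 in clone 2 (log2), so no direction is given for it in clone 2.

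Collagen and laminin genes lay on both sides of wild type, more of them below. Of 26 measured collagen and laminin genes 15 lay below wild type in both clones and 5 above (medians -0.46 and -0.33), beside 29.3% and 35.1% of all measured genes. None passed the limma threshold, and 11 of 32 tested had an unadjusted p under 0.05 (5.78% of all genes tested). The lower ones past 2-fold were the basement membrane genes Col4a1 (2.75 in wild type, 1.31 in clone 1 and 1.35 in clone 2) and Lamb1 (3.11, 2.00 and 1.58). Col4a2, the partner chain, was 2.68-fold and 1.45-fold lower, and Fn1 (fibronectin), from the list of matrix glycoproteins, 1.54-fold and 1.70-fold. The higher ones past 2-fold were Col9a3, Col1a2, Col11a1 and Col11a2.

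Col9a3 read -2.49 in wild type, 0.38 in clone 1 and 0.10 in clone 2, and was not well above background on either other wild-type array. Col2a1, a cartilage collagen gene that was not on the list and was chosen after its value was seen, read -1.17, 0.24 and 0.02. Col11a1 and Col11a2, which code for chains of the same cartilage fibril, were 2.12-fold to 3.82-fold higher, all at low levels. Of the partner chains of Col9a3, Col9a1 took opposite sides (2.85 and -0.68) and Col9a2 differed by 0.00 and 0.16 (log2). Of the fibrillar collagens Col5a1 (-0.55 and -0.92) and Col5a2 (-0.80 and -1.21) lay below wild type in both clones and Col1a1 (1.18 and -0.23) took opposite sides; these 5 were chosen after their values were seen. Postn (periostin), a matrix protein gene on the fibroblast marker list, read 1.28 in wild type and 1.06 in clone 1 but -2.72 in clone 2. Of 33 matrix proteases and inhibitors 19 lay below and 5 above, and Mmp15, a membrane-anchored protease gene, was 2.39-fold and 2.58-fold lower. YAP-TEAD targets had 14 of 22 below and 3 above. Of all measured genes 29.3% lay below wild type in both clones and 35.1% above.

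Most genes of glycolysis and of the hypoxia response lay above wild type in both clones. Of 46 measured, 35 lay above wild type in both clones and 2 below (35.1% of all measured genes lay above), with medians of 0.54 in clone 1 and 0.31 in clone 2. Adm was the member that passed the limma threshold, 9 of 48 tested had an unadjusted p under 0.05 (5.78% of all genes tested), and Adm and Aldoc were the members past 2-fold in both clones. Ddit4, an inhibitor of mTOR signalling, read 5.90 in wild type, 7.48 in clone 1 and 6.65 in clone 2. Bnip3 (a mitophagy receptor) read 7.08, 8.16 and 7.76, and Pdk1 (a kinase that inhibits pyruvate dehydrogenase) 3.98, 4.78 and 4.64. Slc2a1, the glucose transporter gene, was 1.62-fold and 1.37-fold higher, Vegfa 1.88-fold and 1.24-fold, and Hif1a, the oxygen-regulated factor, 1.65-fold and 1.33-fold. Oxygen and cell density were not recorded in the labels, and their part in these values was not tested.

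The Adm promoter is shown because Adm rose and is a textbook target of hypoxia-inducible factor. The capitals mark CACGC, the reverse complement of the core GCGTG, at 90 and 54 bases before the start, in 250 bases of the plus strand at chr7:110627407-110627656 (RefSeq, GRCm38.p6).
Adm: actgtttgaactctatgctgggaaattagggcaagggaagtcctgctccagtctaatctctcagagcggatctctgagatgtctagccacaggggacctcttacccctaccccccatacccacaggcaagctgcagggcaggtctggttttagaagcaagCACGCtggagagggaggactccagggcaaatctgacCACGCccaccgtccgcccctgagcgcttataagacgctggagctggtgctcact
The cores ACGTG and GCGTG, searched on both strands over the same windows, were found in 19.6% and 32.4% of all promoters, and either one in 43.8%. Either one was in 49 of 62 promoters (79%) of the glycolysis and hypoxia list, which holds known targets of that factor. Among the genes past 2-fold in both clones, 47.2% of the promoters of lower genes and 47.3% of those of higher genes held one. A match to 5 bases is a description of the letters and not a binding site.

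Pigment cell genes lay on both sides, more of them higher. Of 46 measured melanocyte genes 24 lay above wild type in both clones and 9 below (medians 0.18 and 0.33), beside 35.1% and 29.3% of all measured genes, and none of 48 tested passed the limma threshold (9 at an unadjusted p under 0.05, beside 5.78% of all genes tested). Besides Cited1 and Ptgds, Tspan10 was past 2-fold, with 1.92 in wild type, 3.14 in clone 1, 3.72 in clone 2 and 3.37 with vehicle. The melanosome genes Pmel and Mlana were 1.24-fold to 1.46-fold higher, the pigmentation regulator gene Mitf 1.16-fold and 1.24-fold, and Tyrp1 was 1.07-fold and 1.04-fold lower. Slc45a2, a melanosomal transporter gene, was 1.66-fold and 2.42-fold higher. Tyr, the rate-limiting enzyme of melanin synthesis, read -0.80 in wild type, 1.11 in clone 1 and -0.18 in clone 2.

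DNA replication and mitosis genes were slightly lower as a group. Of 71 measured, 51 lay below wild type in both clones and 5 above (29.3% of all measured genes lay below), with medians of -0.20 and -0.45, and 0 were past 2-fold in both. None of 72 tested passed the limma threshold and 2 had an unadjusted limma p under 0.05, beside 5.78% of all genes tested. Foxm1, a transcription factor of mitotic genes, read 4.76 in wild type, 4.03 in clone 1 and 4.06 in clone 2, and the proliferation marker gene Mki67 read 5.77, 5.22 and 5.26. Rrm2, a subunit of ribonucleotide reductase, was 1.38-fold and 1.89-fold lower, and the replication licensing gene Cdt1 1.51-fold and 1.77-fold. Of 28 measured p53 targets 16 lay above in both clones and 1 below, beside 35.1% and 29.3% of all measured genes. Cdkn1a, the cell cycle inhibitor p21, read 3.94, 4.58 and 5.12, and Trp53inp1 0.10, 1.17 and 1.95.

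Of 35 sterol and fatty acid synthesis genes 22 lay above wild type in both clones and 3 below, beside 35.1% and 29.3% of all measured genes. Sqle (squalene epoxidase) was 1.48-fold and 1.68-fold higher, Insig1 1.56-fold and 2.00-fold and Acss2 (an acetyl-CoA synthetase) 1.83-fold and 2.38-fold. Of 44 lysosome and autophagy genes 26 lay above and 4 below, with a median over both clones of 0.17 that became -0.03 with the authors' scaling. Neu1 (lysosomal sialidase) read 4.55 in wild type, 5.54 in clone 1 and 5.53 in clone 2, and Ctsd (cathepsin D) 7.61, 8.12 and 8.32. Of the NRF2 and glutathione genes 17 of 47 lay above and 12 below. Gpx2, a glutathione peroxidase gene, read -1.18, 1.36 and 0.96 in wild type, clone 1 and clone 2 (limma adjusted p = 0.0509), and Ephx1 (an epoxide hydrolase) 4.68, 5.70 and 6.38.

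Interferon response genes show where the clones part. Of 37 measured 32 took opposite sides of wild type, beside 4389 of all 12325 measured genes. The list was lower in clone 1 (median -1.48) and higher in clone 2 (median 1.07). Of the 34 genes past 2-fold on opposite sides 17 were on this list, all lower in clone 1. Irf7, a factor that amplifies the interferon response, read 1.25 in wild type, -1.15 in clone 1 and 2.85 in clone 2. For Oas1a, a sensor of double-stranded RNA, the values were 2.51, -1.76 and 4.72. These genes are outside the set described here, and no mean over the clones is given for them.

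**Figure D4:**
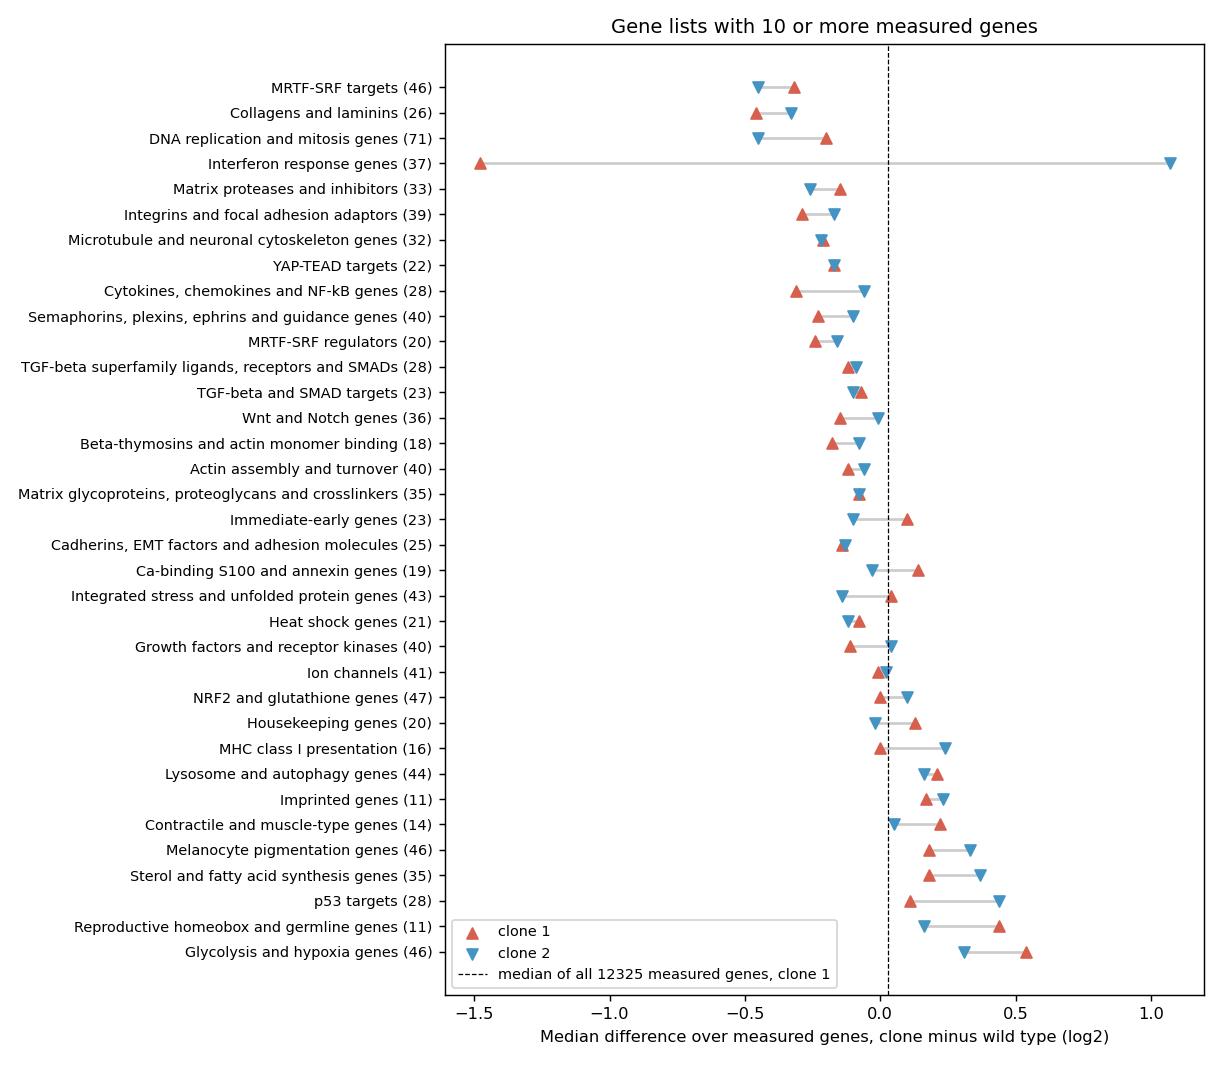
Median log2 difference from the wild-type TGF-β1 array in clone 1 (upward triangles) and clone 2 (downward triangles) for gene lists with 10 or more measured genes (1 list is left out), with the number measured in parentheses and the median of all measured genes in clone 1 (0.03) as a dashed line. MRTF-SRF targets, collagens and laminins and replication genes lie below the line in both clones, glycolysis and hypoxia genes above it, and the interferon genes on both sides.

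A further 1404 tested genes lacked a measured level on at least 1 of the 3 arrays. Of these, 673 were well above background in wild type alone, 43 in both clones alone, 603 in wild type and clone 1 and 85 in wild type and clone 2. The counts are uneven in part by construction, since a gene entered through 1 wild-type array or through both clones. At their bounds 134 genes were at least 2-fold lower in both clones and 17 at least 2-fold higher. A bound sets the bright side against the dim array's own signal or its lowest signal well above background, whichever was higher, on normalized log2 values.

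The 26 limma calls of this kind had to read lower in the clones, so they are given as bounds and without a p, and 16 of them were well above background on no other array at all. Wdr31 was at least 40.0-fold lower in clone 1 and at least 27.6-fold lower in clone 2. Cpa1, a digestive carboxypeptidase gene, was at least 34.7-fold and at least 23.9-fold lower, and Msln (mesothelin), Ifne (interferon ε) and Gm30063 at least 11.2-fold to at least 23-fold. Sult3a2, which is not among the 26, was at least 16.5-fold and at least 11.4-fold lower. Of the 26 called genes 9 had other probes, none of which was well above background in wild type.

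Being bright on a single array was common on every array. Alone among the 5, the wild-type TGF-β1 array had 410 such genes, the vehicle array 326, the CCG1423 array 247, clone 1 380 and clone 2 275. At 8-fold or more over the floor of every other array the order was another, with 14 genes on the wild-type TGF-β1 array, 32 with vehicle, 29 with CCG1423, 26 in clone 1 and 25 in clone 2. Whether these calls come from the treatment or from the 1 array was not tested. On the higher side, Wt1, a zinc finger factor gene, was at least 4.42-fold and at least 6.47-fold higher, and Procr, the protein C receptor gene, at least 3.45-fold and at least 8.21-fold. For Procr only the wild-type TGF-β1 array was dim. The vehicle array read -2.4 and the CCG1423 array -2.35, above clone 1 (-2.69) and below clone 2 (-1.43). The other higher bounds were Pdzk1ip1, Gnai1, Gm32575 and Olfr1047, at least 2.94-fold to at least 6.82-fold. None of these 6 passed the limma threshold.

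Several shared differences were X-linked. Of the 53 genes lower by 2-fold in both clones 7 (13.2%) are on the X chromosome in RefSeq, and of the 79 higher ones 5 (6.33%), against 3.26% of all measured genes. The lower ones include Tmsb4x itself, Rhox5, Gm5640, Drp2 and Hdac8. X-linked genes as a whole were not lower: of 402 measured, 89 lay below and 170 above wild type in both clones. Gm5936 and DXBay18, also among the limma calls, were 10.8-fold and 12.7-fold lower in clone 1 and at least 12.3-fold and at least 18.9-fold lower in clone 2. A second DXBay18 probe, well above background in wild type and clone 2, gave -2.03 (log2) in clone 2, a smaller difference. Gm5640 and Gm5936 are neighbours in RefSeq and are predicted genes whose probes may share transcripts. The levels of DXBay18 took the same order over the 5 arrays as those of Gm5936. Whether its probes share transcripts with these genes was not tested, so the 3 genes may not be separate observations.

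The other wild-type arrays place the 132 genes. Of the 53 lower genes, 27 were 2-fold or more above vehicle in wild type with TGF-β1, and 30 were highest there of all 5 arrays. Both clones lay below all 3 wild-type arrays for 29 of the 53. Of the 79 higher genes, both clones lay above all 3 wild-type arrays for 66, and 10 were 2-fold or more below vehicle in wild type with TGF-β1. The 132 genes were chosen by their distance from the wild-type TGF-β1 array, so part of this separation follows from the choice. The same counts were not made over all measured genes, so they are no result about the 132. Relative to wild type with TGF-β1, the lower genes had a median of -1.10 on the vehicle array and -0.52 on the CCG1423 array, and the higher genes -0.02 and -0.40. All these differences share the wild-type TGF-β1 array, so an error of that array would move them together.

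**Figure D5:**
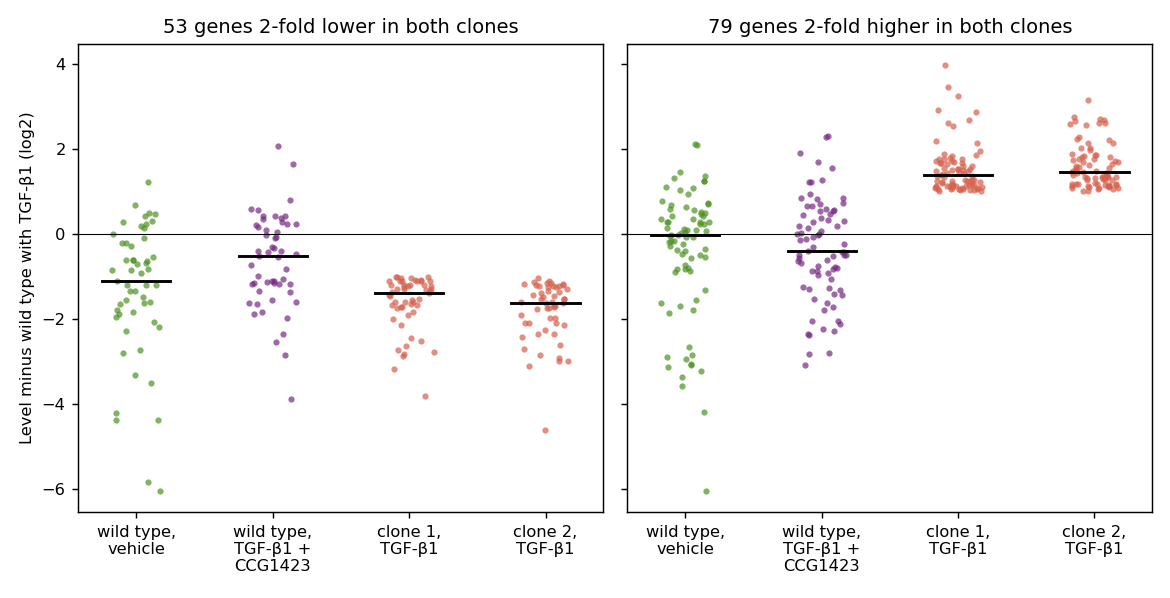
Level of each of the 53 lower (left) and 79 higher (right) genes relative to wild type with TGF-β1 (log2), 1 point per gene on each of the other arrays, with the median as a bar. The lower genes have medians of -1.10 with vehicle, -0.52 with CCG1423, -1.39 in clone 1 and -1.63 in clone 2, and the higher genes -0.02, -0.40, 1.37 and 1.44.

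Where a gene had several probes, they mostly took the same direction. Of the 132 genes 20 had 2 or more measured probes, 18 of these had all probes on the same side in both clones and 11 had all of them past 2-fold. Aldoc (2.64 and 1.89 at its second probe) and Il6 (-1.76 and -1.46) were among them. The counts include the brightest probe of each gene, which is past 2-fold by the choice of the 132. The same counts were not made over all measured genes. Nrg1, a growth factor gene, was 2.14-fold and 4.02-fold higher at its brightest probe, and its other probes were not well above background in either clone. One of them was well above background in wild type with TGF-β1 alone and gave -2.36 in clone 1 and -1.81 in clone 2 (log2). The direction of Nrg1 thus depends on the probe. Among the named genes with smaller differences, 1 of the 4 measured probes of Vegfa took opposite sides (1.01 and -0.39), as did 1 of the 4 of Pdk1 (0.10 and -0.08).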

How the data were processed

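RNA of 5 B16F1 cultures was labelled with Cy3 and hybridised to 5 Agilent arrays, and the groups were taken from the titles and source names. The deposited intensity is the processed signal, from which Agilent Feature Extraction 12.0.3.1 had subtracted background and a spatial trend, per the file headers and the submitters' processing notes. Per the file headers, the same software set the flags for outliers, saturation and signal well above background. In the value table deposited for the series that intensity is scaled by 1 constant per array (log2 of the constant 0.12 for wild type with TGF-β1, -0.17 for clone 1 and -0.08 for clone 2, column medians 29.2, 23.2 and 28.8); the rule behind the constants is unknown. It is linear, is not centred and runs in the direction of the intensity. All 5 arrays share a slide and a scan, so no batch was tested.

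Control and outlier spots were left out and spots of a probe averaged on the log2 scale; the log2 intensity is taken from the deposited files, and each array's 75th percentile was subtracted. Of 56595 probes, 32988 were named by RefSeq accession (GRCm38.p6), for 22907 genes. The brightest probe, by its mean over all 5 arrays, stands for a gene. A gene was tested when well above background in wild type or in both clones, in R 4.3.3 with limma 3.58.1 (lmFit, then eBayes with a trend, 4 groups, Benjamini-Hochberg, threshold 0.05); the script was tested on simulated data. The p-values take their spread from the difference between the clones and set it against the lone wild-type array, which is not named as a clone. That spread holds differences between the clones together with any technical spread, and these parts were not separated. No label says that the clones were grown apart, and the small number of arrays limits the precision.

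The text names Tmsb4x and Tmsb10, measured limma calls, the 15 highest and 15 lowest genes by the smaller clone difference among those above the median level, the 6 largest bounds each way, up to 4 members each way of each of 41 gene lists past 2-fold in both clones, and smaller list members as examples. Examples from other lists were picked after their values were seen. Some genes that the rule names, and 1 list, are not reported here. The members and lists were chosen with earlier results of these data known. Lists not described otherwise had these members above and below wild type in both clones: contractile genes 6 and 4 of 14, TGF-β ligands, receptors and SMADs 7 and 12 of 28, matrix glycoproteins 7 and 14 of 35, cadherins and adhesion molecules 5 and 10 of 25, MHC class I 5 and 2 of 16, cytokines 5 and 12 of 28, growth factors and receptor kinases 14 and 14 of 40, Wnt and Notch genes 9 and 14 of 36, stress and unfolded protein genes 13 and 18 of 43, heat shock genes 4 and 5 of 21, immediate-early genes 9 and 7 of 23, germline genes 6 and 3 of 11, imprinted genes 6 and 1 of 11, ion channels 16 and 15 of 41, microtubule and neuronal genes 7 and 16 of 32 and housekeeping genes 7 and 4 of 20.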

Additional observations from a re-analysis of the deposited data

Results flagged for a closer look

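Of the probes without a gene name, 7964 were measured on all 3 arrays, and 82 of them were 2-fold or more away from wild type in the same direction in both clones. They were 43 higher (0.54%) and 39 lower (0.49%), against 0.641% and 0.43% of the named genes. These shares lie near those of the named genes, so the count is not a result about the unnamed probes. These probes enter no comparison above, and they were looked at because they stand outside the main measurement. No control samples exist for them besides the wild-type arrays.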

How the results depend on the processing

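The number of genes called by limma depended on every choice tried. Against 32 calls, the settings gave 53 (each array's median subtracted), 0 (quantile normalization, limma, 785 at an unadjusted p under 0.05), 56 (normexp with offset 50, then quantile), 220 (the authors' scaling), 3 (only genes well above background on all 3 arrays), 279 (no filter), 0 (mean over the probes of a gene, limma, 749 at an unadjusted p under 0.05), 146 (all probes), 75 (a fit of 3 arrays), 184 (no trend) and 148 (robust eBayes). The count of genes past 2-fold in both clones, 132, became 53 with normexp, 884 without the filter and 254 over all probes, and 495 to 510 genes passed in 1 clone when the other was left out; without a clone no test is left. Tmsb4x passed the threshold with the authors' scaling (-2.46, limma adjusted p = 1.4e-10) and without the filter (-2.26, 4.78e-08), over a range of 1.4e-10 to 0.308 in 11 settings. The median of the MRTF-SRF targets, -0.40, was -0.59 with the authors' scaling, -0.33 to -0.48 in the other settings and -0.45 to -0.32 with 1 clone left out. The medians over both clones of the collagen, replication, glycolysis, melanocyte, sterol and p53 lists kept their sign under each scaling. In clone 1 alone the melanocyte, sterol and p53 medians were 0.18, 0.18 and 0.11. The authors' scaling moved the median of all measured genes in clone 1 from 0.03 to -0.33, so their sign in clone 1 depends on the scaling. Of the 40 lists besides the MRTF-SRF targets, 15 changed sign in at least 1 setting. Averaged over probes, Nrg1 turned to -0.18, and Fhl2 turned to -0.04 and Col9a2 to -0.11 with the authors' scaling. Myl6 turned to -0.04 with quantile normalization, -0.09 with normexp and -0.03 with the authors' scaling. The causes were not tested. Normexp was planned on the mean signal, which the files used here lack, and was run on the median signal, a choice made after seeing the data. No paired analysis was possible because the groups share only the replicate number 1. Depth limits dim genes: signals near background have no order, and the floor of clone 2 is the highest.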
